A study of Mus musculus with 4 samples.

Results

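The interleukin-12 (IL-12), interferon gamma (IFN-gamma), IL-2 and IL-17 cytokines of serum were compared between mice with experimental autoimmune encephalomyelitis (EAE) and control mice on antibody arrays. EAE is an autoimmune inflammation of the brain and spinal cord that serves as a model of multiple sclerosis. The set comprised the 5 spots named IL-12p70, IL-12 p40/p70, IFN-gamma, IL-2 and IL-17, chosen by name from the 32 proteins of the array, and all 5 were found on each of the 4 arrays. The groups, all of male C57BL/6 mice, were 2 sera of EAE mice and 2 sera of vehicle control mice, with 1 array per serum. No transgene or gene deletion is named in the labels. The number of mice behind a serum, their age, the way EAE was induced, the day of sampling and the vehicle are unknown from the labels, whose protocol moves serum into a single tube. The spread behind the p-values is thus that between these 4 samples and may be technical. On the array, immobilised antibodies capture proteins from serum, and a biotin label makes each spot visible.

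T helper cells of the type 1 and type 17 classes are the lymphocytes usually held to drive EAE. IL-12p70 is the active heterodimer of a p35 subunit (gene Il12a) and a p40 subunit (gene Il12b), is secreted mainly by dendritic cells and macrophages, and directs T cells towards the type 1 class, whose signature product is IFN-gamma (gene Ifng). The p40 subunit is also found in IL-23, which maintains type 17 cells, and as free p40, and the spot named IL-12 p40/p70 carries both forms in its name. IL-2 (gene Il2) is the growth factor that activated T cells release, and it also sustains regulatory T cells. IL-17 (listed as a synonym of gene Il17a) is the signature product of type 17 cells and acts on epithelial and stromal cells to recruit neutrophils. In serum the cell that released a cytokine is not measured, so fewer producing cells and less release per cell cannot be told apart. A technical difference between the groups that is shared by all spots of an array cannot be told apart from these either.

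Each array had 3 readings of the background: the average of the blank spots, the average of the negative-control spots and a single further blank spot. The single blank was the brightest of them on every array, at 11355 on EAE array 1 and 11087 on EAE array 2, against 10916.5 on control array 1 and 11167.5 on control array 2. The brightest and the dimmest background reading lay 1373 and 1338 intensity units apart on the EAE arrays and 977 and 1259 on the control arrays. The positive-control spots averaged 51232 ± 1445 on EAE arrays and 53743 ± 649 on control arrays (SD, n = 2 each). The median protein intensity was 12769 and 12000 on the EAE arrays, against 20392 and 20734 on the control arrays, so the whole panel was dimmer in EAE. Brightness below means the intensity divided by the positive-control average of the array, and keeps the background. Normalised signal means the deposited ratio of the authors, in which the blank average is 0 and the positive control is 1. A spot that did not exceed the brightest background reading was called not above background.

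Relative to the positive control all 5 cytokines were lower in EAE serum than in control serum, but in brightness none of them passed as lower once the array median was set equal across arrays. On the brightness scale 5 of 5 passed as lower (limma, adjusted p from 0.0024 to 0.029 over the 32 proteins), where 90.6% of the panel did, and the groups of all 5 were separate, as were those of 96.9% of the panel. The 5 of 5 is thus close to the share of the panel. In normalised signal 5 of 5 also passed as lower, where 93.8% of the panel did. The median difference of the 5 was -0.47 in log2 brightness and -2.25 in log2 normalised signal, beside -0.54 and -1.84 over all 32 proteins. With spots not above background at their bounds, the median fold in normalised signal was 3.55 for the 5 and 2.88 for the panel. With arrays scaled to the same median, which removed a shift of -0.66 and left the median protein at 0.12, IL-12p70 stood at -0.24 and IL-2 at -0.052, IL-17, IFN-gamma and IL-12 p40/p70 turned positive at 0.19, 0.20 and 0.38, and none of the 5 passed in either direction, where 0% of the panel passed as lower and 12.5% as higher (limma; at an unadjusted threshold of 0.05, 0 of the 5 were lower and 1, IL-12 p40/p70, was higher, with EAE spots not above background whose background was scaled up with them). Quantile normalization likewise left 0 of the 5 past the threshold, where 0% of the panel passed as lower and 3.12% as higher (limma; 0 of the 5 at an unadjusted threshold of 0.05). In normalised signal set relative to its array median, 1 of the 5, IL-17, passed as lower (-1.84 ± 0.30, limma SE, adjusted p = 0.0034), where 9.38% of the panel passed as lower and 21.9% as higher, but its EAE spots were not above background. Without EAE replicate 1 the brightness calls held for 3 of 5, where 62.5% of the panel passed as lower, and without EAE replicate 2 for 3 of 5, where 59.4% did.

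**Figure D1:**
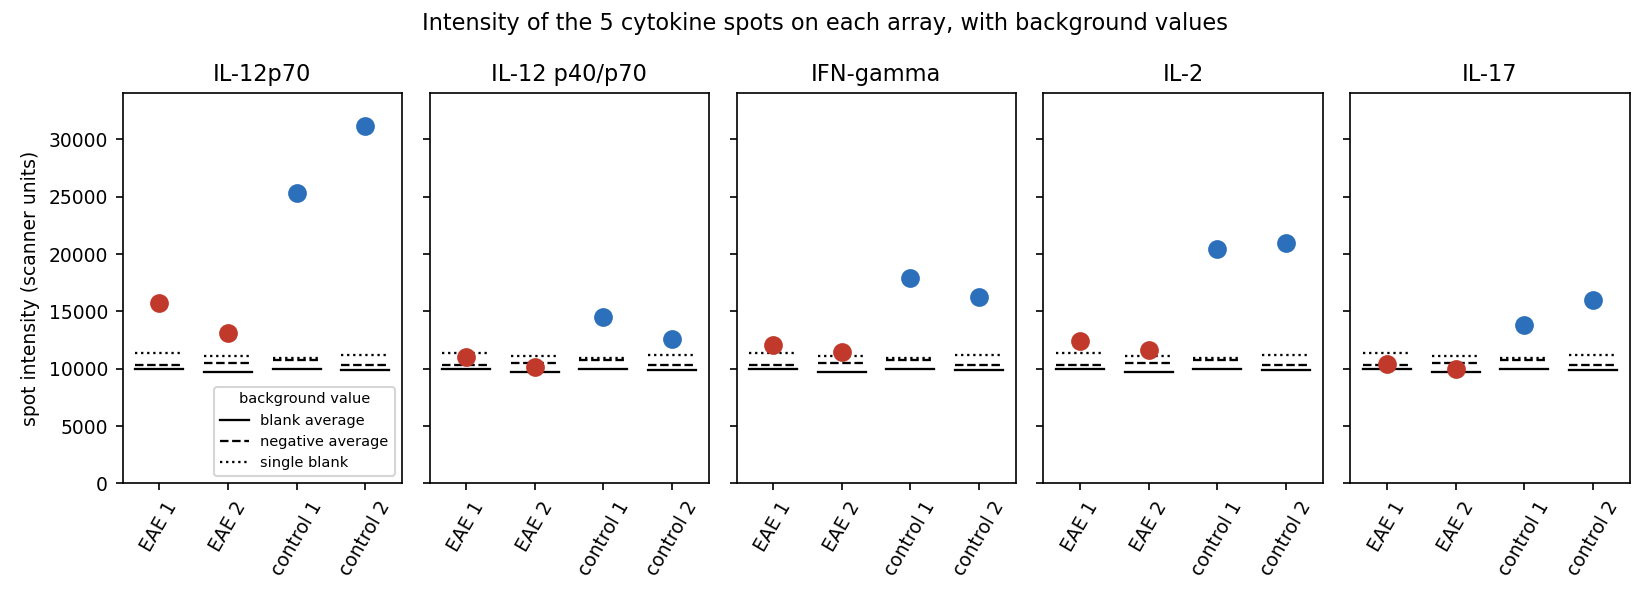
Spot intensity (scanner units, linear axis from 0) of the 5 cytokines on EAE arrays 1 and 2 (red) and control arrays 1 and 2 (blue), with the 3 background readings of each array as black lines. IL-12p70 lay clear of the background on all 4 arrays, whereas IL-17 and IL-12 p40/p70 lay at or below the single blank on both EAE arrays.

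IL-12p70 was the brightest of the 5 spots on every array. Its intensity was 15710 and 13079 on the EAE arrays, against 25364.5 and 31210 on the control arrays. The groups did not overlap, and the dimmer control was 1.61 times the brighter EAE value. The normalised signal was 0.136 and 0.0823 in EAE, against 0.348 and 0.491 in controls. The log2 difference in brightness was -0.90 ± 0.15 (limma SE, adjusted p = 0.0066), and leaving out 1 array at a time gave -1.07 to -0.74. In normalised signal, where the positive control is 1, IL-12p70 averaged 0.109 ± 0.038 in EAE and 0.420 ± 0.101 in controls (SD, n = 2 each). It was 3.92-fold lower, beside a panel median of 3.57-fold as measured and 2.88-fold with proteins not above background at their bounds. Relative to the array median the log2 difference in normalised signal was 0.037 ± 0.28 (limma SE, adjusted p = 0.98), with a 95% interval of -0.61 to 0.68.

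The IL-12 p40/p70 spot stood near the floor of the array. Its intensity was 10984 and 10191.5 on the EAE arrays, against 14522 and 12620.5 on the control arrays. The groups did not overlap, although control 2 was only 1.15 times EAE 1. On EAE array 1 the spot stood at 658 relative to the negative average and -371 relative to the single blank. On EAE array 2 it stood at -343 and -896 relative to them, and 442 above the blank average alone. On control array 2 it lay 1453 above the single blank, a margin similar to the 1259 units between the background readings of that array. The log2 difference in brightness was -0.29 ± 0.08 (limma SE, adjusted p = 0.029), the closest to 0 of the 5. The call was lost without EAE replicate 1 (adjusted p = 0.10) and without EAE replicate 2 (adjusted p = 0.15). The EAE level is an upper limit, so that in normalised signal IL-12 p40/p70 was at least 2.03-fold lower.

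IL-2 had the closest control values of the 5. Its intensity was 12432 and 11626.5 on the EAE arrays, against 20463.5 and 20938 on the control arrays. The 2 groups were far apart relative to the gap between replicates. Normalised signal averaged 0.0522 ± 0.0082 in EAE and 0.246 ± 0.012 in controls (SD, n = 2 each), which was 4.74-fold lower. The panel median was 3.57-fold as measured and 2.88-fold with bounds. Set relative to its array median, the log2 difference in normalised signal was -0.24 ± 0.23 (limma SE, adjusted p = 0.46). The log2 difference in brightness was -0.71 ± 0.06 (limma SE, adjusted p = 0.0024), and leaving out 1 array at a time gave -0.74 to -0.69. IL-2 lay above all 3 background readings on both EAE arrays, by 1077 and 540 over the single blank. These margins were smaller than the 1373 and 1338 units between the background readings of those arrays.

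IFN-gamma differed less than IL-2 in brightness. Its intensity was 12089 and 11453 on the EAE arrays, against 17887.5 and 16297 on the control arrays. The EAE and control values were separate. The log2 difference in brightness was -0.47 ± 0.06 (limma SE, adjusted p = 0.0047). In normalised signal IFN-gamma was 3.55-fold lower, with 0.0460 ± 0.0055 in EAE and 0.163 ± 0.023 in controls (SD, n = 2 each), beside the panel medians of 3.57-fold as measured and 2.88-fold with bounds. It was above the single blank on both EAE arrays, by 734 and 366. Both margins were smaller than the 1373 and 1338 units between the background readings of those arrays.

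IL-17 gave the dimmest of the 5 spots on both EAE arrays and on control array 1. Its intensity was 10402 and 9987.5 on the EAE arrays, against 13797.5 and 15960 on the control arrays. The groups did not overlap. Expressed as a share of the positive control, the EAE spots were at 19.9% on both arrays, below the 21.7% and 22.1% of the single blank, whereas the control spots were at 25.5% and 30.0%. Relative to the negative average the EAE spots stood at 76 and -547. The log2 difference in brightness was -0.47 ± 0.10 (limma SE, adjusted p = 0.012), and the call was lost without EAE replicate 1 (adjusted p = 0.064) and without EAE replicate 2 (adjusted p = 0.065). In normalised signal IL-17 was at least 2.79-fold lower. The measured normalised signal of 0.00995 and 0.00588 in EAE would give the lowest difference of the panel, -3.85 on the log2 scale, but both values stem from spots that were not above background, and the bound is smaller than the 2.88-fold panel median with bounds.

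Of the 10 EAE spots of the 5 cytokines, 6 were above the brightest background reading, and the other 4 belonged to IL-12 p40/p70 and IL-17. On the panel 49 of 64 EAE spots were above it. By protein, 2 of the 5 cytokines and 21.9% of the panel were not above background on both EAE arrays. No control spot of the 5 was at or below background.

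**Figure D2:**
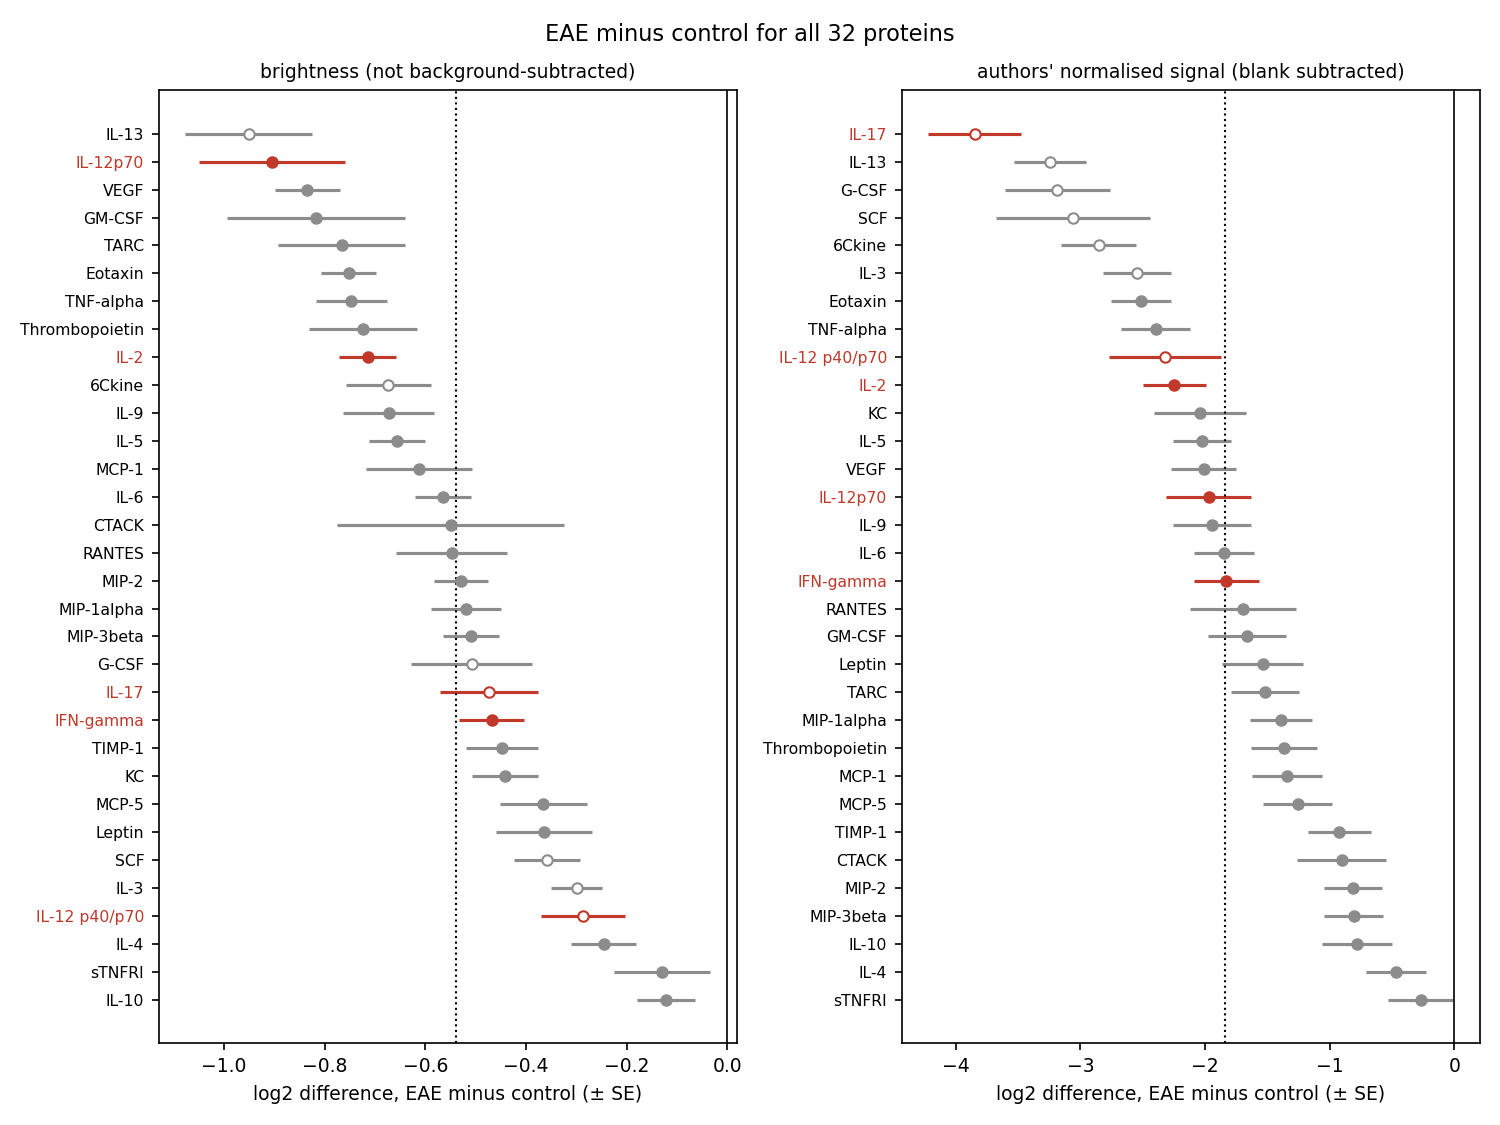
Log2 difference, EAE minus control, of all 32 proteins with the limma SE (n = 2 each), in brightness (left) and in normalised signal (right), with the 5 cytokines in red, the panel median as a dotted line and proteins not above background on both EAE arrays as open circles. In brightness IL-12p70 and IL-2 lie below the panel median and the other 3 above it. In normalised signal the places of the open circles, IL-17 and IL-12 p40/p70 among them, rest on EAE spots not above background. All values are relative to the positive control. In brightness a common array median moves IL-12 p40/p70, IFN-gamma and IL-17 above 0.

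The size of the fold depended on the background reading subtracted, and so did the order of the cytokines. For the 3 cytokines above background, subtraction of the blank average gave 4.74-fold for IL-2, 3.92-fold for IL-12p70 and 3.55-fold for IFN-gamma. With the negative average these became 6.33-fold, 4.46-fold and 4.85-fold, and with the single blank 11.9-fold, 5.41-fold and 10.8-fold. IFN-gamma was thus below IL-12p70 in fold with the blank average and above it with either other reading. Without any subtraction the folds were 1.64, 1.87 and 1.38. IL-2 and IFN-gamma, whose EAE spots were within 1077 units of the single blank, moved more than IL-12p70, whose EAE spots were 4355 and 1992 above it. All 3 were lower past an adjusted p of 0.05 with each reading (limma, 0.00050 to 0.014 after subtraction). Most of the panel was too: 30 of 32 proteins with the blank average, 28 of 32 with the negative average and 20 of 25 with the single blank. The calls are thus not particular to these 3. Subtraction of the negative average dropped EAE replicate 2 for IL-17 and IL-12 p40/p70, and subtraction of the single blank left no EAE value for either, so no fold is given for them here.

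**Figure D3:**
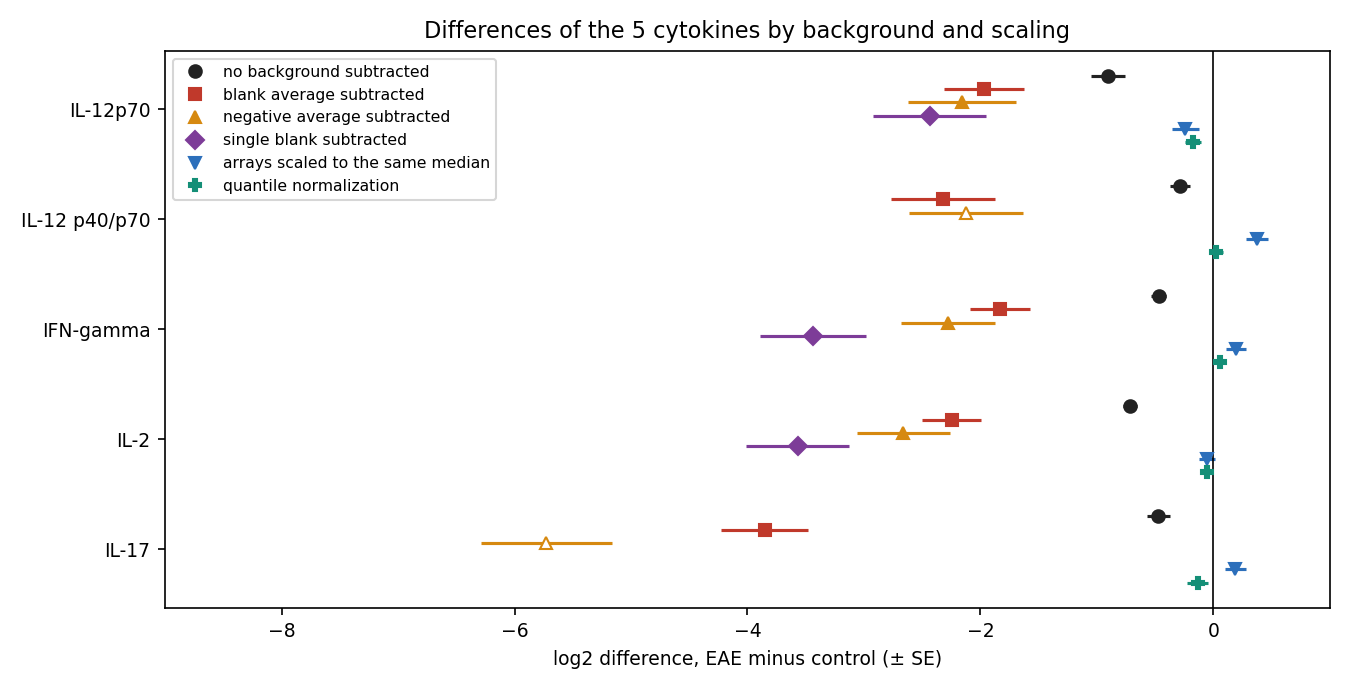
Log2 difference, EAE minus control, with the limma SE, of the 5 cytokines under 4 treatments of the background and 2 scalings that set the panel equal between arrays. Open symbols mark fits with a single EAE array (n = 3 in all). Background subtraction moves all plotted values to the left, and both scalings place them between -0.24 and 0.38, with IL-12 p40/p70 and IFN-gamma above 0 under both and IL-17 above 0 under median scaling.

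The replicates of a group did not vary alike. In EAE the first array had the higher normalised signal for 5 of 5 cytokines, and for 27 of 32 proteins of the panel. The ratio of EAE array 1 to EAE array 2 was 1.18 for IFN-gamma, 1.25 for IL-2, 1.65 for IL-12p70, 1.69 for IL-17 and 2.17 for IL-12 p40/p70, of which the last 2 come from spots not above background. Between the controls the cytokines split. Control array 2 was higher for IL-12p70, IL-17 and IL-2, at 1.41, 1.60 and 1.07 times control array 1, and control array 1 was higher for IL-12 p40/p70 and IFN-gamma, at 1.66 and 1.22 times control array 2. The panel split evenly as well, with 16 of 32 proteins higher on control array 2. Both IL-12 spots, which share the p40 subunit, therefore moved in opposite directions between the control sera.

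Comparing spots within an array removes any factor that multiplies all its spots. Brightness keeps the background, so a drop shared by all signals above the background does not cancel in a brightness ratio. The capture antibodies differ in strength, so a ratio of spots does not give a ratio of protein amounts, and only its change between arrays was read. The ratio of the IL-12p70 spot to the IL-12 p40/p70 spot in brightness was 1.43 and 1.28 on the EAE arrays, against 1.75 and 2.47 on the control arrays. Both EAE ratios were below both control ratios, and the log2 ratio averaged 0.44 ± 0.11 in EAE and 1.06 ± 0.35 in controls (SD, n = 2 each). The difference of -0.62 had an exact two-sided permutation p of 0.33, the smallest that 2 against 2 arrays allow (adjusted p = 0.48 over the 10 pairs of the 5 cytokines), and was -0.37 without control replicate 2. After subtraction of the blank the sign turned. In normalised signal the ratio was 5.71 and 7.53 on the EAE arrays, against 3.37 and 7.85 on the control arrays, and the groups overlapped. On both scales the EAE ratios rest on a p40/p70 spot that was not above background. With that spot set to the lowest normalised signal above background on its array, the normalised EAE ratios were 3.43 and 2.07. These are lower bounds. Whether a shared drop above the background gives the brightness difference of -0.62 was not tested.

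The ratio of the IFN-gamma spot to the IL-17 spot in brightness was 1.16 and 1.15 on the EAE arrays, against 1.30 and 1.02 on the control arrays. The EAE ratios lay between the control ratios. The log2 difference between the groups was 0.0048 (exact two-sided permutation p = 1.0, n = 2 each), and ranged from -0.17 to 0.18 when 1 array was left out. In normalised signal the ratio was 5.01 and 7.16 on the EAE arrays, against 2.06 and 1.06 on the control arrays, without overlap (exact two-sided permutation p = 0.33, adjusted p = 0.67 over the 10 pairs, n = 2 each). That separation rests on IL-17 spots in EAE that were not above background. Set to the bound, the EAE ratios were at least 1.26 and 1.06, and the groups overlapped. With these bounds no direction of IFN-gamma relative to IL-17 was measured.

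**Figure D4:**
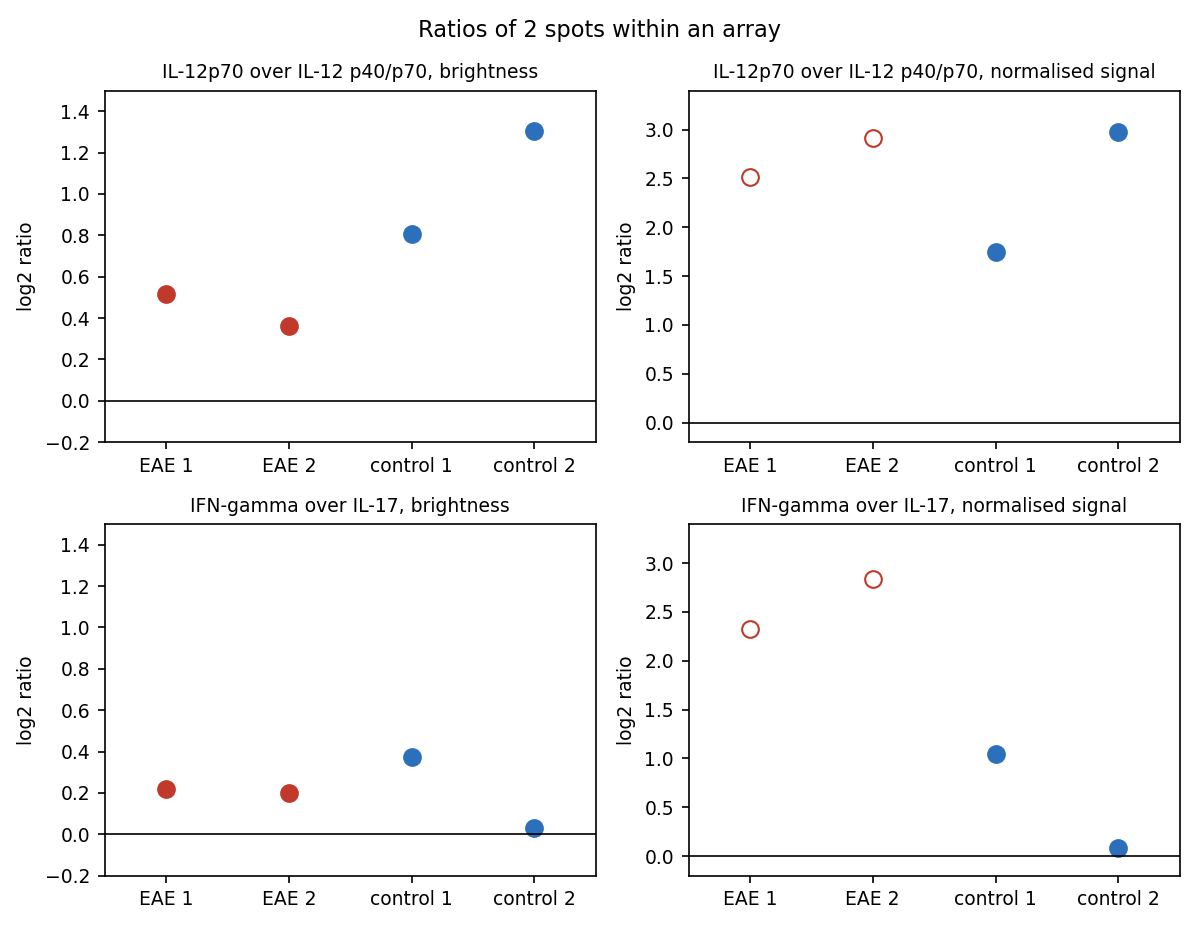
Log2 ratio of 2 spots on the same array, IL-12p70 over IL-12 p40/p70 (top) and IFN-gamma over IL-17 (bottom), in brightness (left) and in normalised signal (right), for EAE arrays 1 and 2 (red) and control arrays 1 and 2 (blue). Open circles, drawn only in the normalised-signal panels, mark ratios whose denominator was not above background. The filled EAE circles in brightness have the same denominators. The IL-12 ratios separate the groups in brightness and not in normalised signal, and the IFN-gamma to IL-17 ratios do so in normalised signal and not in brightness.

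Over all 10 pairs of the 5 cytokines, the groups were separate for 7 pairs in brightness and for 5 in normalised signal. Over all 496 pairs of the panel this was so for 67.3% and 73.6%. The other 8 pairs were added after the values were seen. IL-12p70 over IFN-gamma and IL-12p70 over IL-17 differed by -0.44 and -0.43 on the log2 brightness scale, with separate groups, whereas IL-12p70 over IL-2 overlapped. In normalised signal IL-12p70 over IFN-gamma differed by -0.14 and overlapped, and IL-12p70 over IL-17 turned to 1.88, where IL-17 in EAE was not above background.

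The proteins with the most similar profile over the 4 arrays were sought by the root mean square difference of centred log2 brightness. IL-2 was closest to TNF-alpha (0.030) and IL-5 (0.035), and IFN-gamma to MIP-1alpha (0.027) and MIP-3beta (0.028). IL-17 was closest to G-CSF (0.040), the growth factor of neutrophils, and then MCP-1 (0.084). IL-12 p40/p70 was closest to MCP-5 and leptin (0.042 each), and IL-12p70 to IL-13 (0.092) and GM-CSF (0.099). The median difference from the 27 other proteins was 0.13 for IL-2 and IL-17, 0.14 for IFN-gamma, 0.16 for IL-12 p40/p70 and 0.23 for IL-12p70. With 4 arrays in 2 groups these values are a description. Neither G-CSF, at 10408 and 10533.5 on the EAE arrays, nor IL-17 was above background in EAE.

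Proteins of related function were lower alongside the 5 cytokines relative to the positive control, in shares like that of the panel. On the panel 90.6% passed as lower in brightness. The related inflammatory cytokines TNF-alpha, GM-CSF and IL-6 were lower in 3 of 3 cases, with a median of -0.75 in log2 brightness that became -0.08 with arrays scaled to the same median. GM-CSF, which activates myeloid cells, was the lowest at -0.82 ± 0.18 (limma SE, adjusted p = 0.013), and IL-6, an acute-phase cytokine, the highest at -0.56 ± 0.06 (adjusted p = 0.0028). The 6 listed proteins that IL-17 is known to induce were the chemokines KC, MIP-2 and MCP-1, the growth factors G-CSF and GM-CSF, and IL-6. Of these 6, 6 were lower, although G-CSF was not above background in EAE. Their lowest was GM-CSF again and their highest was KC, a chemokine for neutrophils, with -0.44 ± 0.07 (limma SE, adjusted p = 0.0054), with a median of -0.55 that median scaling turned to 0.12. Of 5 type 2 and regulatory cytokines (IL-4, IL-5, IL-9, IL-10 and IL-13) 4 were lower, with a median of -0.66 that median scaling turned to 0.0075. IL-13 was the lowest, at -0.95 ± 0.13 (limma SE, adjusted p = 0.0047) and not above background in EAE, and IL-10, the highest, did not pass, at -0.12 ± 0.06 (adjusted p = 0.10). IL-4 and IL-9, which share the common gamma chain of the receptor with IL-2, were lower in 2 of 2 cases, at -0.25 ± 0.06 and -0.67 ± 0.09 (limma SE, adjusted p = 0.022 and 0.0047; IL-4 did not pass in normalised signal, adjusted p = 0.11), with a median of -0.46 that median scaling turned to 0.20. The EAE intensities of IL-4 and IL-10 are the only protein values of the files that are not multiples of 0.5. The brightness calls of GM-CSF and IL-4 were lost without EAE replicate 1 (limma adjusted p = 0.058 and 0.082) and without EAE replicate 2 (adjusted p = 0.062 and 0.16). These lists overlap and are not separate results.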

How the data were processed

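Serum proteins were measured on 4 antibody arrays (2 EAE, 2 control). Per the labels, detection used biotin. The authors deposited 1 intensity per protein and array, neither background-subtracted nor scaled, and, per the file headers, positive, blank and negative spots as averages. No source used here names the scanner or the spot software. The authors also deposited a ratio per protein, which equals intensity minus blank average over positive minus blank average (largest deviation 1.2e-07).

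Log2 intensity over the positive average was fitted over all 32 proteins on the group alone (limma 3.58.1, R 4.3.3, lmFit and eBayes, two-sided, Benjamini-Hochberg over 32, threshold 0.05). The fit was tested on simulated data with independent errors of a common SD and most proteins unchanged. That simulation held no shift shared by all spots of an array, so it does not bear on such a shift. Single ratios were tested by exact permutation (scipy 1.17.1). Bounds set EAE spots not above background to the lowest normalised signal above background on that array, or their own if higher. The number of arrays limits the precision, and spot replicates were not used.

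The 5 proteins, the lists and the tests were chosen with earlier results of these data known. The text names the 5 proteins, the 2 most similar proteins of each, and the extremes of 4 lists. Alternatives were other scalings, backgrounds, offsets, a dim-spot filter, the replicate block and leaving out each array. Same-numbered samples deviated with r = -0.16 over 32 proteins, and the labels do not pair them. All 5 symbols were found in RefSeq's GRCm38.p6 gene table; no coordinates or sequences are printed, since no protein sequence was used here.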

Additional observations from a re-analysis of the deposited data

How the results depend on the processing

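The settings that subtract the single blank, set normalised signal relative to its array median, set spots not above background to their bound or cross the replicate numbers were chosen after seeing the data. The calls of the 5 cytokines kept their direction with unscaled intensities, the normalised signal, normexp and the offset. With the replicate block 30 of 32 proteins and 5 of 5 cytokines were lower, with crossed numbers also 30 and 5. With a common array median the differences were -0.24 (IL-12p70), 0.38 (IL-12 p40/p70), 0.20 (IFN-gamma), -0.052 (IL-2) and 0.19 (IL-17), and with quantile normalization -0.18, 0.023, 0.054, -0.054 and -0.14, with 0 of 32 proteins and 0 of 5 cytokines lower, and 4 and 1 proteins higher (limma; unadjusted p under 0.05 gave 1 lower with either, 10 and 4 higher). Both scalings remove a shared shift by construction. In normalised signal relative to its array median they were 0.037, -0.31, 0.18, -0.24 and -1.84, with 3 proteins and 1 cytokine (IL-17, not above background in EAE) lower. Normexp left 15 of 32 proteins lower, and the cause was not tested. The dim-spot filter left 3 cytokines, all lower, among 22 of 24 proteins, and single-blank subtraction 3 of 3 cytokines and 20 of 25 proteins. Leaving out 1 array gave 19 to 30 proteins and 3 to 5 cytokines, with differences of -1.07 to -0.74 (IL-12p70), -0.38 to -0.20 (IL-12 p40/p70), -0.52 to -0.41 (IFN-gamma), -0.74 to -0.69 (IL-2) and -0.59 to -0.36 (IL-17). Without an EAE array the remaining one is assumed to vary like the controls. The IL-12p70 to IL-12 p40/p70 log2 ratio difference was 0.35 in normalised signal, 0.47 with the negative average subtracted (EAE replicate 2 dropped) and 0.19 with normexp, -0.95 with bounds, and -0.87 to -0.37 with 1 array left out. The IFN-gamma to IL-17 difference was 2.02 in normalised signal, 3.88 with the negative average subtracted (EAE replicate 2 dropped), 2.06 with normexp, -0.35 with bounds and -0.17 to 0.18 with 1 array left out. The values with bounds are lower limits. Signal over background limits IL-17 and IL-12 p40/p70 in EAE.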
